A study of Mus musculus with 4 samples.

Results

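The 10 genes described here are immediate early genes, namely Fos, Fosb, Jun, Junb, Jund, Egr1, Egr2, Egr3, Atf3 and Ier2. They were taken by symbol from the table of 24421 gene symbols, all 10 were found, and all 10 passed the filter on low counts among 11588 genes tested. They were read in fibro-adipogenic progenitors (FAPs), stromal cells that lie between the muscle fibres, split by the surface peptidase DPPIV (gene Dpp4) into DPPIV- FAPs and DPPIV+ FAPs. Both populations were sorted as PI- CD31- CD45- Sca1+ cells from each of 2 mice, which gave 4 bulk RNA libraries and n = 2 per group, paired by animal. The mice were wild-type adults given a CSF1R inhibitor, which depletes macrophages, for 3 weeks and then a regular diet for 3 days. Both groups share this treatment, so the libraries hold no untreated control. The labels name tibialis anterior as the source, whereas the protocol describes muscle from both hindlimbs.

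Immediate early genes are transcribed within minutes of a stimulus from promoters that need no new protein synthesis, through serum response factor with its ETS partners and through CREB. Fos and Jun proteins pair as the AP-1 transcription factor, in which Fos family proteins need a Jun partner and Jun family proteins can also pair with each other. The Egr genes encode zinc finger transcription factors, Atf3 encodes a stress-induced ATF/CREB family factor that often acts as a repressor, and Ier2 encodes a small nuclear protein of the same early wave. In stromal cells of solid tissue these genes are also known to be induced by warm enzymatic dissociation. Here the muscle was digested with collagenase and dispase at body temperature before sorting, and no library of undigested tissue was analysed here.

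The libraries held between 18240110 and 20879405 counts, so that 3 counts correspond to at most 0.164 CPM, far below every member. CPM are a gene's counts relative to the library total, here scaled by TMM for the levels given in the text. Dpp4 itself read 89.8 CPM in the DPPIV- and 728 CPM in the DPPIV+ library of mouse 1, and 39.7 and 575 CPM in mouse 2. The labels and the sorted marker therefore go the same way in both animals. The FAP markers Pdgfra, Ly6a, which encodes Sca1, and Cd34 were at 962 CPM or more in every library, while of the 8 FAP markers 2 were higher in DPPIV+ FAPs (Ly6a and Cd34) and 5 lower, among them Pdgfra (log2 fold change -0.38), Col1a1 (-0.40) and Lum (-0.85). All 6 markers of DPP4+ stromal progenitors tested, such as Pi16 and Anxa3, were higher in DPPIV+ FAPs.

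Members called lower and the one called higher are shown first by the 100 bases before their transcription start, read from RefSeq promoter windows of GRCm38.p6 that reach 250 bases before and 50 bases after the start. Of the 10 members 7 had a window, and Egr1, Egr3 and Ier2 had none. The window of Jund lies 1210 bases from its GENCODE start, so it may not hold the promoter of the counted transcript, and it is not printed. The 4 lower members Fos, Fosb, Jun and Egr2 and the higher member Atf3 are printed 5′ to 3′ on the gene's own strand, with matches to the searched motifs in capitals. The stretches are Fos at chr12:85473790-85473889 on the plus strand, Fosb at chr7:19310046-19310145 on the minus strand, Jun at chr4:95052223-95052322 on the minus strand, Egr2 at chr10:67537769-67537868 on the plus strand and Atf3 at chr1:191183334-191183433 on the minus strand.
Fos: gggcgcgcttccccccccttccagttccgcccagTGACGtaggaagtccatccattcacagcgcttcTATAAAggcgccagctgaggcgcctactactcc
Fosb: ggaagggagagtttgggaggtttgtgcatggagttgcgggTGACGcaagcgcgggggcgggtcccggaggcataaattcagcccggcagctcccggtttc
Jun: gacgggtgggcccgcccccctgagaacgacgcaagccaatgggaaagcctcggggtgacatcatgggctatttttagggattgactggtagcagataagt
Egr2: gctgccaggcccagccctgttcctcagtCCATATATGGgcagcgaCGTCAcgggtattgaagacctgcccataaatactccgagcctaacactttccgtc
Atf3: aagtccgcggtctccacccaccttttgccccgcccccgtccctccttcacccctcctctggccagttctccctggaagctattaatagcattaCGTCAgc

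In capitals are the core CRE motif TGACG, on which CREB and ATF proteins bind and which reads CGTCA where it lies on the other strand, and the CArG box, where serum response factor binds. Capitals also mark the TATA box, searched as TATAAA, and 7 motifs in all were searched on both strands. The core CRE motif, which is part of the full CRE TGACGTCA, was found in 5 of the 7 windows (Fos, Fosb, Junb, Egr2 and Atf3) and in 20.9% of 27025 promoter windows of the same length. A match to the TATA box motif was present in the windows of Fos and Junb and in 14.2% of all windows, and the CArG box in that of Egr2 and in 1.54% of all windows. The TATAAA of Fos lies at -33 to -28 from the window's transcription start. That of Junb lies at 0 to 5, on the window's own start, which is 30 bases from the GENCODE start of Junb. No match was found in the 7 windows for the full CRE (1.84% of all windows), for the AP-1 site TGAGTCA (5.15%), for the EGR site GCGTGGGCG (0.607%) or for the ETS site CCGGAAG (9.21%). Only exact matches were searched, so variants of a motif inside a window, such as tgacatca in the Jun stretch, stayed in lower case and were not counted. Sites outside these windows, and any sites of Egr1, Egr3 and Ier2, were not searched, so a motif not found here may lie elsewhere. The core motif occurred both in members that were lower and in Atf3, which was higher in DPPIV+ FAPs.

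Of the 10 immediate early genes, 7 were lower in DPPIV+ than in DPPIV- FAPs (Fos, Fosb, Jun, Egr1, Egr2, Egr3 and Ier2), 1 was higher (Atf3), and Junb and Jund did not pass the test. Against this, 17.2% of all genes tested were called lower and 15.9% higher. The members' median log2 fold change was -0.40, while the median over all genes tested was -0.00. Without the DPPIV- library of mouse 2, or without that mouse, the members' median was -0.25. All 10 had the same sign in both mice, as did 8447 of the 11588 genes. In 7 members the CPM of the groups did not overlap (Fos, Jun, Junb, Egr1, Egr2, Egr3 and Ier2), which held for 56.3% of all genes. Without the animal in the model 0 members were called higher and 5 lower, with Fos, Fosb and Atf3 lost. In the same model with 1 library left out, the lower members called were Egr2 and Egr3 without the DPPIV+ library of mouse 1, Egr2, Egr3 and Ier2 without the DPPIV+ library of mouse 2, those 3 and Egr1 without the DPPIV- library of mouse 2, and all 7 without the DPPIV- library of mouse 1. In bulk RNA, fewer cells that express a gene and less of its RNA per cell cannot be told apart.

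**Figure D1:**
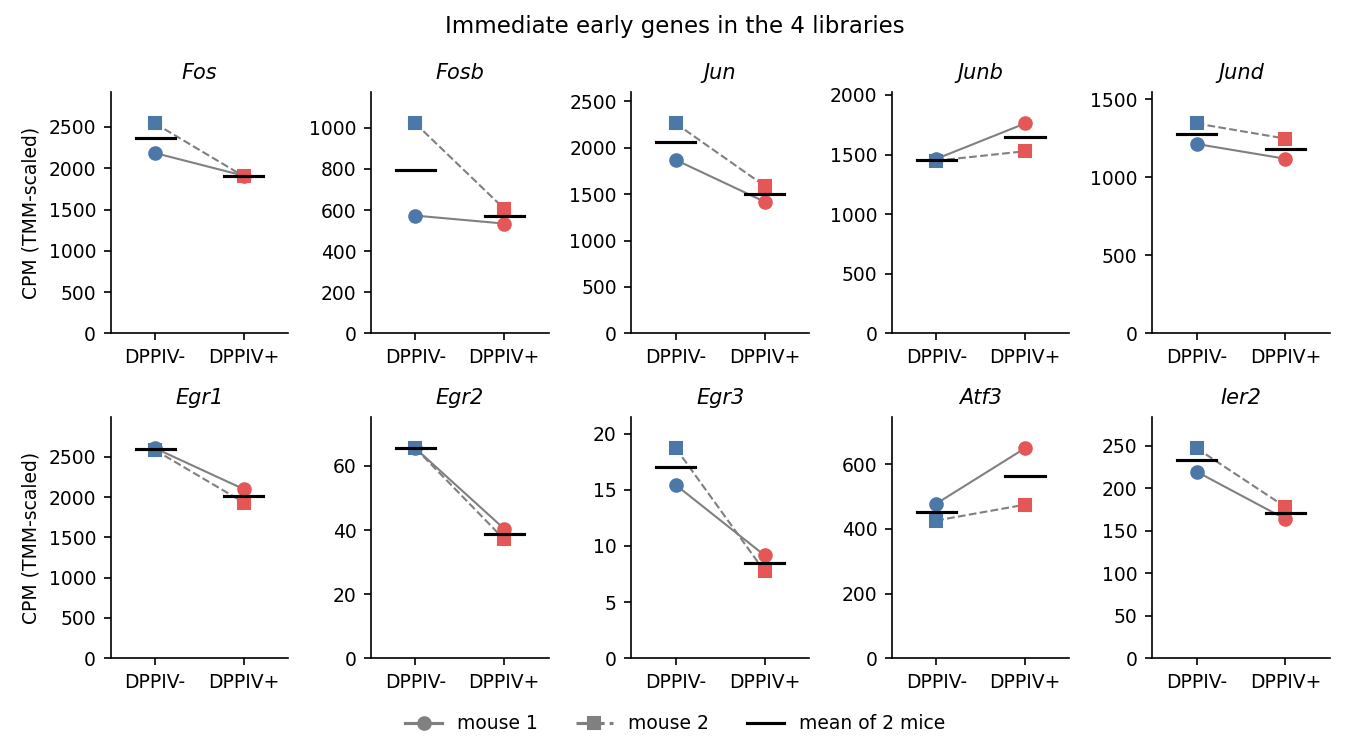
TMM-scaled CPM (vertical axes, each from 0) of the 10 immediate early genes in DPPIV- (blue) and DPPIV+ FAPs (red), with circles for mouse 1, squares for mouse 2, grey lines joining the libraries of 1 mouse and black bars for the mean of 2 mice. Lines slope down in both mice for 8 genes and up in both for Junb and Atf3, and the slopes of the 2 mice differ most for Fosb, from 1021 to 606 CPM in mouse 2 and from 573 to 534 CPM in mouse 1.

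Fos (chr12:85473890-85477273, plus strand), the founding AP-1 partner, read 2184 CPM in DPPIV- and 1909 CPM in DPPIV+ FAPs of mouse 1, and 2542 and 1902 CPM in mouse 2. Both DPPIV+ libraries lay below both DPPIV- libraries, and the mice differed mainly in the DPPIV- cells. The fitted level was 1.24-fold lower in DPPIV+ FAPs (log2 fold change -0.31 ± 0.07 SE, edgeR adjusted p = 0.000189), and DESeq2 gave an adjusted p of 0.00662. Without the animal in the model the adjusted p was 0.0855.

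Fosb (chr7:19302696-19310051, minus strand), the closest relative of Fos among the members, read 573 and 534 CPM in the DPPIV- and DPPIV+ FAPs of mouse 1, and 1021 and 606 CPM in mouse 2. A single library, DPPIV- FAPs of mouse 2, stood above the other 3, and the groups overlapped. The fit put Fosb 1.35-fold lower in DPPIV+ FAPs (log2 fold change -0.43 ± 0.07 SE, edgeR adjusted p = 8.78e-09), a call that was lost with DESeq2 (adjusted p = 0.564) and without the animal in the model (edgeR adjusted p = 0.238). Leaving out the DPPIV- library of mouse 2 brought the log2 fold change to -0.01 (edgeR adjusted p = 0.983).

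Jun (chr4:95049034-95052222, minus strand), the main Jun partner of AP-1 and a target of the JNK kinases, read 1868 and 1418 CPM in DPPIV- and DPPIV+ FAPs of mouse 1, and 2261 and 1589 CPM in mouse 2. The groups did not overlap. Its level was 1.37-fold lower in DPPIV+ FAPs (log2 fold change -0.45 ± 0.07 SE, edgeR adjusted p = 5.66e-09).

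Junb (chr8:84974484-84978718, minus strand), a Jun family protein that activates AP-1 sites more weakly than Jun in many settings, went the other way. It read 1463 and 1760 CPM in DPPIV- and DPPIV+ FAPs of mouse 1, and 1448 and 1527 CPM in mouse 2. The log2 fold change of 0.17 ± 0.07 SE just missed the threshold (edgeR adjusted p = 0.0535). The gene passed it in 3 of the 10 full-data alternatives. These were no filter on low counts (edgeR adjusted p = 0.0235), 10 counts in every library (edgeR adjusted p = 0.0492) and offsets for GC content and length (edgeR adjusted p = 0.00478). Those it missed included DESeq2 (adjusted p = 0.230), upper-quartile factors (edgeR adjusted p = 0.187) and the model without the animal (edgeR adjusted p = 0.313).

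Jund (chr8:70698949-70700616, plus strand), the Jun family member that is expressed most steadily across tissues, read 1214 and 1119 CPM in mouse 1 and 1345 and 1249 CPM in mouse 2. The ratio was almost the same in both mice, -0.12 and -0.11 on the log2 scale, yet smaller than the difference between the mice, and the groups overlapped. It was not called (log2 fold change -0.11 ± 0.07 SE, edgeR adjusted p = 0.246) under any of the alternatives. On the opposite strand, Junb shares 173 exon bases with Prdx2, Jun 232 with Junos and Jund 877 with Gm11175. Whether reads were counted by strand is not given in the sources used here. Prdx2 read 82.1 to 86.0 CPM and was not called. Junos and Gm11175 were not among the gene symbols counted, so they have no values here.

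Per kilobase of exon, the ratio of Junb to Jun was 1.09 in DPPIV- and 1.72 in DPPIV+ FAPs of mouse 1, and 0.888 and 1.33 in mouse 2. Within each mouse it was larger in the DPPIV+ cells, and the groups did not overlap. Summed over the family, Jun, Junb and Jund together read 4545 and 4298 CPM in mouse 1 and 5055 and 4365 CPM in mouse 2.

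All 3 Egr members were lower. Egr1 (chr18:34859823-34864984, plus strand), the most abundant of them and a zinc finger activator bound by the corepressors NAB1 and NAB2, read 2608 and 2099 CPM in DPPIV- and DPPIV+ FAPs of mouse 1, and 2585 and 1933 CPM in mouse 2. The DPPIV- libraries of the 2 mice were nearly equal and both lay above the DPPIV+ libraries. The fold was 1.29 (log2 fold change -0.37 ± 0.07 SE, edgeR adjusted p = 5.91e-06).

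Egr2 (chr10:67535475-67542188, plus strand), known for its role in myelinating Schwann cells and in lymphocytes, read 65.5 CPM in the DPPIV- FAPs of both mice, and 40.4 and 37.1 CPM in the DPPIV+ FAPs of mouse 1 and mouse 2. It was 1.69-fold lower in DPPIV+ FAPs (log2 fold change -0.76 ± 0.07 SE, edgeR adjusted p = 4.19e-24). Of the Schwann cell markers, Sox10 stayed at 1.43 CPM or less in every library.

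Egr3 (chr14:70077203-70082614, plus strand), a target of calcium signalling through NFAT in lymphocytes, had the lowest level and the largest difference of the members. It read 15.4 and 9.16 CPM in DPPIV- and DPPIV+ FAPs of mouse 1, and 18.7 and 7.74 CPM in mouse 2. The fold was 2.01 (log2 fold change -1.01 ± 0.14 SE, edgeR adjusted p = 3.43e-12). Egr2 and Egr3 were the only members called in all 10 full-data alternatives and in all 4 fits that left out 1 library.

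Atf3 (chr1:191170296-191218039, minus strand) was the only member called higher. It read 478 and 650 CPM in DPPIV- and DPPIV+ FAPs of mouse 1, and 426 and 475 CPM in mouse 2. The DPPIV+ library of mouse 2 lay just under the DPPIV- library of mouse 1, so the groups overlapped while both pairs went up. The fold was 1.23 (log2 fold change 0.30 ± 0.07 SE, edgeR adjusted p = 6.96e-05), with an adjusted p of 0.0181 in DESeq2 and 0.222 in edgeR without the animal in the model. Without the DPPIV+ library of mouse 1 the log2 fold change was 0.07 (edgeR adjusted p = 0.847).

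Ier2 (chr8:84661331-84662852, minus strand) read 220 and 164 CPM in DPPIV- and DPPIV+ FAPs of mouse 1, and 247 and 178 CPM in mouse 2, a fold of 1.36 (log2 fold change -0.45 ± 0.07 SE, edgeR adjusted p = 2.48e-10). The 2 mice gave nearly the same ratio, -0.42 and -0.47 on the log2 scale. The ratio of Atf3 to Fos per kilobase was 0.239 in DPPIV- and 0.372 in DPPIV+ FAPs of mouse 1, and 0.183 and 0.273 in mouse 2, larger in the DPPIV+ cells of each animal.

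**Figure D2:**
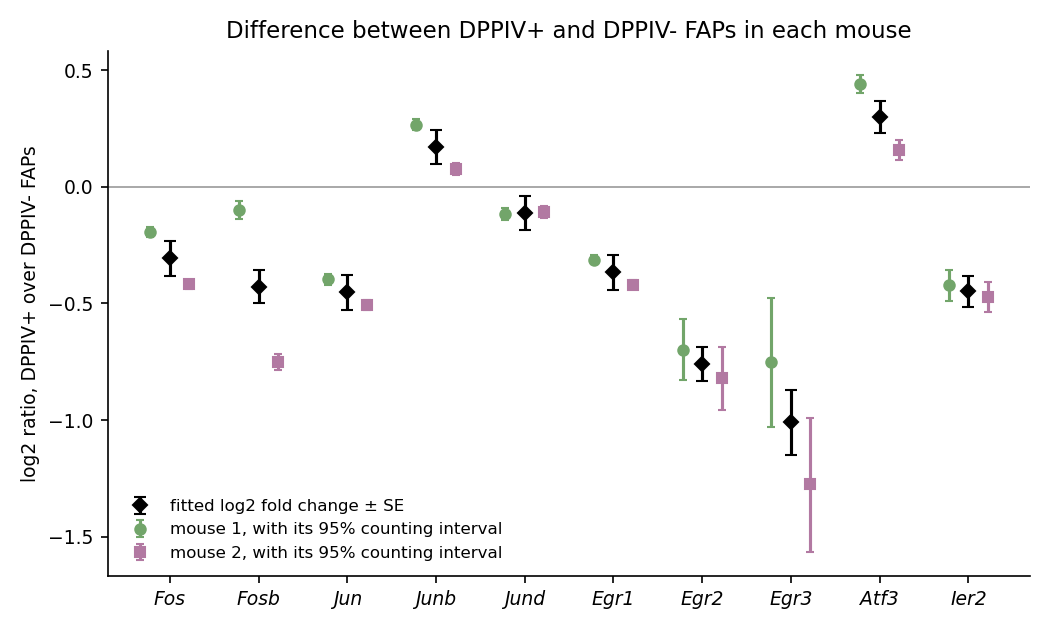
Log2 ratio of DPPIV+ over DPPIV- FAPs (vertical axis) for each immediate early gene in mouse 1 (green circles) and mouse 2 (purple squares), with 95% counting intervals, beside the fitted log2 fold change ± SE (black diamonds). The 2 mice lie on the same side of 0 for all 10 genes, closest for Jund and Ier2 and farthest apart for Fosb, at -0.10 and -0.75.

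The size of the difference was not the same in both mice. In Fosb the log2 ratio was -0.10 in mouse 1 and -0.75 in mouse 2, in Egr3 it was -0.75 and -1.27, in Fos it was -0.19 and -0.42, and in Atf3 it was 0.44 and 0.16. The counting intervals of the mice overlapped for Jund, Egr2, Egr3 and Ier2 and did not for the other 6 members. Of 1646 genes with a mean of at least 100 CPM, 0.790% had ratios as far apart between the mice as Fosb, and 11.1% as far apart as Fos. With 1 library per cell type and mouse this difference between mice could not be tested, and the SE of the fit does not measure it.

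The members spanned a wide range of levels. Together they took 1.07% of the counts in DPPIV- and 0.958% in DPPIV+ FAPs of mouse 1, and 1.22% and 0.935% in mouse 2. Ranked by counts among all genes, Egr1 stood between 37 and 47 and Fos between 38 and 52, whereas Ier2 stood between 551 and 933, Egr2 between 2557 and 4446 and Egr3 between 6805 and 9109. Per kilobase of exon, averaged over the 4 libraries, Fos stood at 907 CPM, followed by Jund at 739, Junb at 674, Jun at 559, Egr1 at 514, Atf3 at 236, Ier2 at 133, Fosb at 109, Egr2 at 15.3 and Egr3 at 2.90. In that order, Jund and Junb, Junb and Jun, Jun and Egr1, and Ier2 and Fosb had ranges over the libraries that overlapped, and the other neighbours had not. The lengths are those of all annotated exons of a gene joined together, so genes with long minor transcripts are placed too low.

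The libraries were also compared between animals. Between mouse 2 and mouse 1, 2 members were higher in mouse 2 (4.47% of all genes were) and 1 was lower (4.51% of all genes were). Fosb was higher in mouse 2 (log2 fold change 0.51 ± 0.07 SE, edgeR adjusted p = 6.27e-11), by 0.83 in the DPPIV- and 0.18 in the DPPIV+ FAPs on the log2 scale. Jun was higher (0.22 ± 0.07 SE, edgeR adjusted p = 0.0335) and Atf3 lower (-0.31 ± 0.07 SE, edgeR adjusted p = 0.000255). With 1 animal on each side this compares 2 animals' libraries, and DESeq2 called 0 members and edgeR's likelihood ratio test no longer called Jun (adjusted p = 0.0579).

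Heat shock and chaperone genes were lower in mouse 2 or not called. Of 20 tested, 10 were lower and 0 higher in mouse 2. Hspa1a, an inducible HSP70 gene, read 981 and 753 CPM in the DPPIV- and DPPIV+ FAPs of mouse 1, and 436 and 337 CPM in mouse 2. Hspa1b and Hspa1a are near-identical copies, so that their reads can be split between them. Between cell types, 9 of the 20 were lower in DPPIV+ FAPs and 2 higher, including Hspa1b (-0.47), Dnajb1 (-0.43) and Hspa1a (-0.38) among the lower, and the small heat shock genes Hspb8 (0.85) and Cryab (0.29) as the higher, all as log2 fold changes. Without the animal in the model, 0 of them were called lower and 1 higher. With edgeR, markers of other cell types also differed between the animals. In mouse 2, 8 of 8 endothelial and 5 of 10 macrophage markers were lower, and 5 of 5 myofibre and 5 of 5 tenocyte markers higher. DESeq2 called the macrophage marker C1qb (adjusted p = 0.0326) and the tenocyte marker Fmod (adjusted p = 0.0117). It did not call Pecam1 (adjusted p = 0.956), Tek (adjusted p = 0.598), Scx (adjusted p = 0.544) or the myofibre marker Acta1 (adjusted p = 0.176). The log2 ratio of mouse 2 over mouse 1 was -1.10 in DPPIV- and -0.05 in DPPIV+ FAPs for Kdr, and -0.80 and -0.59 for Egfl7. The part of these genes in the differences of the immediate early genes was not tested.

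**Figure D3:**
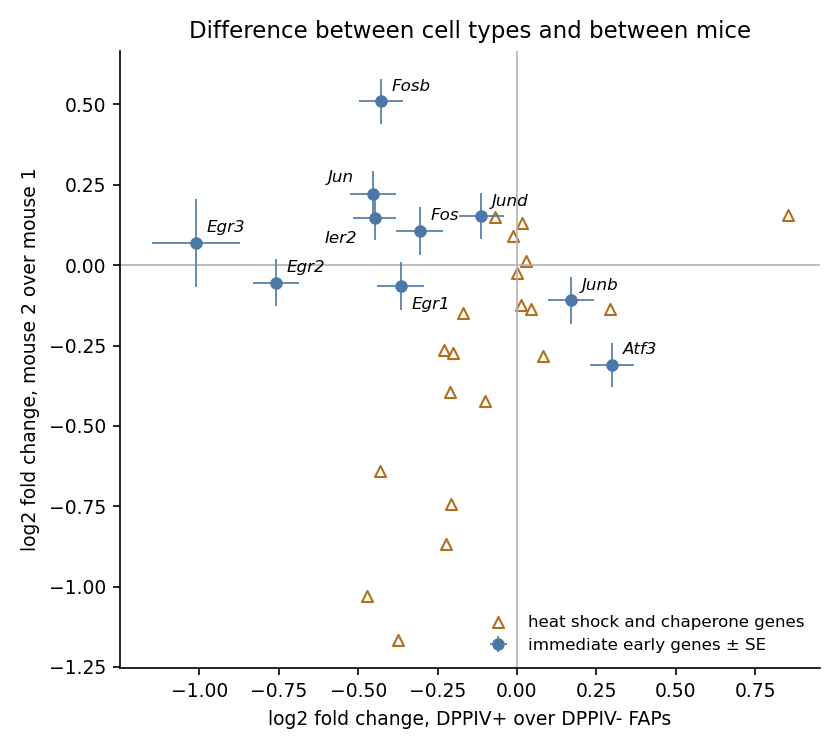
Fitted log2 fold change between cell types (horizontal axis, DPPIV+ over DPPIV- FAPs) and between mice (vertical axis, mouse 2 over mouse 1) for the 10 immediate early genes (blue circles, ± SE) and 20 heat shock and chaperone genes (open triangles). Fosb lies highest at 0.51 between mice, while chaperone genes reach down to -1.17.

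Other genes of the same families went in both directions. Of 12 tested AP-1, ATF, EGR and IER relatives, 3 were higher and 2 lower in DPPIV+ FAPs, with a median of -0.06. Fosl2, a Fos relative of slower kinetics, read 215 and 359 CPM in DPPIV- and DPPIV+ FAPs of mouse 1, and 278 and 342 CPM in mouse 2 (log2 fold change 0.52 ± 0.07 SE, edgeR adjusted p = 2.69e-13). Both DPPIV+ libraries lay above both DPPIV- libraries, whereas for Fos both lay below. Fosl1 was also higher (1.68) but stayed at 6.16 CPM or less, and DESeq2 did not call it (adjusted p = 0.269). Ier5 was higher (0.30), whereas Ier5l (-0.90) and Ier3 (-0.16) were lower. The calls of Ier5 and Ier3 were lost with DESeq2 (adjusted p = 0.0971 and 0.580) and without the animal in the model (edgeR adjusted p = 0.143 and 0.334), a model in which 2 relatives were called higher and 1 lower.

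The wider early response was split. Of 43 tested genes outside the members, 15 were higher and 15 lower, with a median of 0.03, and 7 and 6 were called without the animal in the model. Among the higher were Ptgs2, the inducible prostaglandin synthase (log2 fold change 1.16), Klf4 (0.76) and the NF-kappaB inhibitor gene Nfkbia (0.62). Among the lower were the orphan nuclear receptor gene Nr4a2 (-1.26), the antiproliferative gene Btg2 (-0.75) and the stress gene Gadd45b, which read 133 and 66.5 CPM in mouse 1 and 103 and 51.3 CPM in mouse 2. Btg2 read 496 and 313 CPM in mouse 1 and 440 and 246 CPM in mouse 2, and Klf4 read 560 and 1090 CPM in mouse 1 and 708 and 1047 CPM in mouse 2. These genes thus differed in opposite directions in the same libraries.

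Feedback and output genes of the ERK pathway, which also signals to early gene promoters, were mostly lower. Of 11 tested, 8 were lower and 2 higher in DPPIV+ FAPs, with a median of -0.33, and DESeq2 and the model without the animal each called 5 lower. Spry4, a feedback inhibitor, read 54.2 and 22.5 CPM in DPPIV- and DPPIV+ FAPs of mouse 1, and 63.0 and 25.9 CPM in mouse 2 (log2 fold change -1.28 ± 0.08 SE, edgeR adjusted p = 1.71e-53). The ETS factor genes Etv1 (-1.45) and Etv4 (-1.41) were lower as well, while Ccnd1, which encodes cyclin D1 (0.84), and Spry2 (0.33) were higher. The part of this pathway in the members' differences was not tested.

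Factors that act on early gene promoters and the MAP kinases differed in both directions. Of 30 tested, 7 were higher and 5 lower, with a median of 0.08, and 3 and 3 were called without the animal in the model. The kinase genes Rps6ka3 (0.41) and Mapk9 (0.33) and the CREB coactivator gene Crtc3 (0.29) led the higher, and Rps6ka1 (-1.38), the ETS factor gene Elk3 (-0.48) and the EGR corepressor gene Nab1 (-0.35) the lower. DESeq2 did not call Crtc3 (adjusted p = 0.0657) or Nab1 (adjusted p = 0.0796). Srf, which encodes serum response factor, was not called, at a log2 fold change of 0.06.

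Textbook targets of AP-1 and EGR also divided. Of 15 tested, 8 were lower and 5 higher, with a median of -0.19, and 6 and 2 were called without the animal in the model. The lower genes included the collagenase gene Mmp13 (-2.18), which DESeq2 did not call (adjusted p = 0.109), and the gelatinase gene Mmp9 (-1.17). Ptgs2, Ccnd1 and Plaur (0.38), the urokinase receptor gene, led the higher. Plaur was not called by DESeq2 (adjusted p = 0.354) or without the animal in the model (edgeR adjusted p = 0.0661), and Mmp9 was not called without the animal (edgeR adjusted p = 0.0912).

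**Figure D4:**
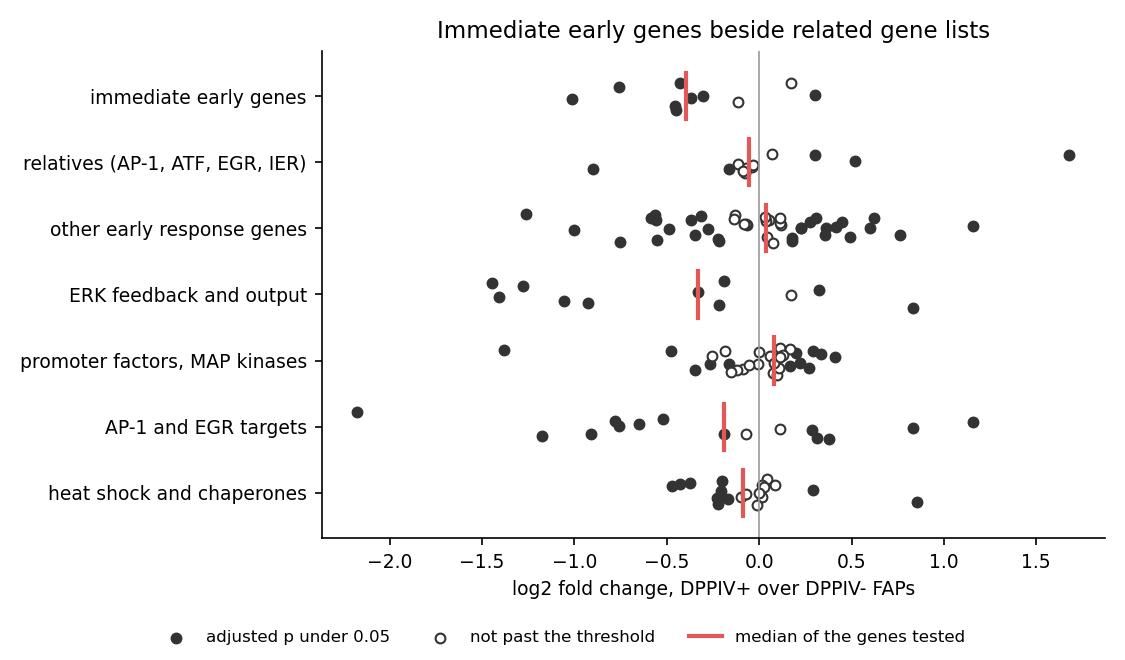
Log2 fold change of DPPIV+ over DPPIV- FAPs (horizontal axis) of the tested genes in 7 lists (rows), filled where the adjusted p was under 0.05 and open elsewhere, with the list's median as a red bar. The medians of the immediate early genes, at -0.40, and of the ERK feedback genes, at -0.33, lie lowest, and those of the relatives and of the other early response genes lie near 0.

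Markers of other cell types were also measured. The 11 macrophage and leukocyte markers summed to 386 and 251 CPM in DPPIV- and DPPIV+ FAPs of mouse 1 and to 238 and 218 CPM in mouse 2, with 6 of 10 tested lower and 0 higher in DPPIV+ FAPs. DESeq2 and the model without the animal called 0 of them, and Timd4 was at 0 in 3 libraries. Ptprc, which encodes CD45, read 6.42 to 9.75 CPM. The 6 mural cell markers summed to 121 and 51.2 CPM in mouse 1 and to 123 and 63.5 CPM in mouse 2, with 5 of 6 lower and 0 higher.

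Of 8 endothelial markers, 5 were lower and 1 higher, and 0 of them were called lower by DESeq2 or without the animal in the model. Their sums of 268 and 515 CPM in mouse 1 and 194 and 468 CPM in mouse 2 were carried by Tek, while Pecam1, which encodes CD31, read 11.2 to 20.4 CPM. Satellite cell markers summed to 128 and 57.8 CPM in mouse 1 and to 128 and 63.1 CPM in mouse 2, mostly Vcam1, with Pax7 at 0.511 CPM or less. Of the 2 tested, 2 were lower, and 1 was called lower by DESeq2 and 1 without the animal in the model. Tenocyte markers summed to 1798 and 1902 CPM in mouse 1 and to 2391 and 3767 CPM in mouse 2 (4 of 5 higher, 1 lower). Myofibre markers stayed between 49.8 and 77.0 CPM with 0 of 5 called, glial markers between 23.2 and 30.2 CPM and neutrophil markers between 1.70 and 4.70 CPM. The part of these cells in the members' differences was not tested.

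The genes whose profile over the 4 libraries lay nearest to the members' median profile were Socs5, Lrig3, Plekhg1, Esyt1 and Tbc1d8, out of 8634 candidates with a mean of at least 10 CPM. Likeness was the root mean square distance of centred log2 CPM, which ran from 0.0166 for Socs5 to 0.0190 for Tbc1d8. Among the members themselves, Fos (0.0372), Ier2 (0.0510) and Jun (0.0613) lay nearest to that profile and Atf3 (0.401), Egr3 (0.345) and Junb (0.294) farthest from it.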

How the data were processed

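RNA from sorted DPPIV- and DPPIV+ FAPs of 2 mice was sequenced as 4 paired-end libraries. The authors demultiplexed the reads with bcl2fastq 2.20, used STAR to align them to mm10, tallied reads per annotated gene and deposited raw counts per gene symbol, without a filter or normalization. The annotation release and strand setting are not given in the sources used here, and the labels and the paper name different stranded library kits.

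A gene entered the tests if it reached 2 CPM in 2 or more of the 4 libraries, after the authors' filter. Counts were TMM-normalized and tested in R 4.3.3 with edgeR 4.0.16 (quasi-likelihood F test, two-sided, mouse and cell type in the model, Benjamini-Hochberg adjustment over 11588 genes, threshold 0.05). The model leaves 1 residual degree of freedom and the prior degrees of freedom were infinite, so a gene's spread is that of all genes of like abundance. Each SE is the absolute log2 fold change divided by the square root of the F statistic. It therefore carries this shared spread, and not the gene's own difference between the mice. The study's own test, the DESeq2 Wald test (version 1.42.0 here), was an alternative. The mouse block follows from the titles, which name the animal, and mouse 2 minus mouse 1 in the 2 cell types correlated at 0.415 across genes, which are not independent replicates. CPM use TMM-scaled totals, ratios per mouse a prior count of 0.125, and the 95% intervals cover counting error only. The tests were first run on simulated data, and the outcome is not reported here.

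Exon lengths, positions and overlaps come from GENCODE M21 on GRCm38 and similar transcripts from BLAST 2.17.0. Where several RefSeq promoter windows existed, the one nearest to the principal GENCODE start was taken. The named genes are all members, Dpp4, up to 3 genes past the threshold in each direction with the largest log2 fold change in every other list, and the 5 nearest profiles; 1 gene that this rule names is not reported here. Sox10, Pecam1, Ptprc, Pax7, Timd4, Srf, Prdx2 and Acta1 were named after their values were seen. The members and gene lists were chosen with earlier results of these data known, and the motifs after the members' values were seen.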

Additional observations from a re-analysis of the deposited data

How the results depend on the processing

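Over all genes, the 1837 higher and 1989 lower calls became 923 and 995 with DESeq2 and 1001 and 1119 with no replicate block. With 1 library left out and no replicate block, the higher calls were 632, 712, 914 and 1049 and the lower 732, 841, 1090 and 1121. Of the members, 1 was called higher, which became 2 with no filter, 2 with 10 counts in every library, 2 with GC content and length offsets in the blocked model and 0 with no replicate block. Over the left-out libraries, 0 to 1 members were called higher and 2, 3, 4 and 7 lower, the fewest without the DPPIV+ library of mouse 1. The median of -0.40 ranged from -0.47 to -0.25 when a library was left out, and was -0.45 without mouse 1 and -0.25 without mouse 2, and the value nearest 0 came without the DPPIV- library of mouse 2 or without that mouse. Between mice, 518 higher and 523 lower genes became 65 and 45 with DESeq2, the members' 2 higher calls became 0 with DESeq2 and 1 with the likelihood ratio test, and the 1 lower became 0 with DESeq2. With DESeq2, higher and lower calls in the other lists were 1 and 1 for the relatives, 10 and 9 for the other early response genes, 2 and 5 for ERK feedback, 1 and 3 for heat shock, 2 and 2 for promoter factors and MAP kinases, 3 and 6 for AP-1 and EGR targets, 0 and 0 for macrophages, 1 and 0 for endothelium, 0 and 3 for mural cells and 4 and 0 for tenocytes. The cause of these changes was not tested. Between cell types, no member changed sign under any alternative run. Between mice, members that were not called did, since the log2 ratio of mouse 2 over mouse 1 was -0.01 for Fos and -0.24 for Egr3 in DPPIV+ FAPs alone, against 0.11 and 0.07 in the fit, and 0.00 for Egr2 in DPPIV- FAPs alone, against -0.05. Upper-quartile factors shifted the median of all genes by only -0.04, and RLE factors, robust moderation, 2 CPM in at least 3 libraries and the likelihood ratio test left the members' calls between cell types as they were. In the pairing by animal, the block changed the calls of Fos, Fosb and Atf3 and of no other member. With 2 mice and 1 residual degree of freedom, leaving out 1 mouse gives ratios and no test, and with 1 library left out the lone library is assumed to vary like the other group's.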
